A study of Mus musculus with 27 samples.

Results

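Of 5076653 autosomal positions listed in at least 1 of 27 methylation files, 46970 (0.925%) were listed in all 6 files of the mouse strains CAST/EiJ and PWK/PhJ and in none of the 21 files of 7 other strains. They are called pair-only positions here. The listing itself chose them, so their number is a description and has no test; the methylation level at each position played no part in the choice. They made up 2.23% of the 2103738 autosomal positions listed in all 6 files of the pair. They are set against 1653370 positions listed in all 27 files, called shared positions, which made up 78.6% of the same 2103738.

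The 27 samples were hepatocytes, the parenchymal cells of the liver, from female mice aged 12 weeks, with 3 samples from each of 9 inbred strains. The pair consisted of CAST/EiJ (replicates 1, 4 and 5) and PWK/PhJ (replicates 1, 2 and 3), and the remaining 7 strains were WSB/EiJ, NZO/HlLtJ, NOD/ShiLtJ, DBA/2J, C57BL/6J, A/J and 129S1/SvImJ. The labels give no treatment, transgene or deletion for any strain. They call the samples biological replicates and name no animal, so p-values measure the spread between these samples.

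Methylation was measured by reduced representation bisulfite sequencing (RRBS), in which MspI cuts genomic DNA at CCGG and bisulfite converts unmethylated cytosine to uracil. Each file lists positions with a percent methylation, without read counts, so the depth is unknown and no counting interval can be given. The files held between 2904787 and 3156965 positions, and those of the pair between 2969433 and 3126017. No pair of samples among 351 held equal values at more than 2.93% of shared positions, counted where the first sample was neither 0 nor 100%.

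As background, CpG methylation in mammals is set on both strands by maintenance and de novo methyltransferases. Most CpGs are methylated, while CpG islands at promoters are usually free of it. Methylated cytosine is prone to deaminate to thymine, which turns CG into TG on that strand and CA on the opposite one, so CpGs are gained and lost between lineages. CAST/EiJ derives from Mus musculus castaneus and PWK/PhJ from Mus musculus musculus, while the other strains are mainly of Mus musculus domesticus origin, as is the C57BL/6J genome from which the mouse reference was built. MspI sites and CpGs that differ in sequence between strains can differ in whether RRBS lists them.

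The sequences below show how these positions lie in reference promoters. They are RefSeq letters of GRCm38.p6, 5′ to 3′ on the gene's strand, taken from windows of 250 bases before to 50 bases after a gene start, and only bases before the start are printed. Capitals mark pair-only positions, and every letter is the reference's, not that of CAST/EiJ or PWK/PhJ. The first set belongs to the promoters with the most pair-only positions, and it was chosen to show runs of them at reference CpGs.
Birc5, chr11:117849027-117849214, plus strand: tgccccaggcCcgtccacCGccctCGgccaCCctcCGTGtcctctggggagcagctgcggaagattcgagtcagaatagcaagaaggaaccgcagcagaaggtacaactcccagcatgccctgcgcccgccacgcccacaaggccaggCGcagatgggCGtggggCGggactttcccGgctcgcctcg
Gm5294, chr5:138820005-138820079, plus strand: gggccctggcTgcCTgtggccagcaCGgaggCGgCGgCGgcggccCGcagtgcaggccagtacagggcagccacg
Mast4, chr13:103334649-103334725, minus strand: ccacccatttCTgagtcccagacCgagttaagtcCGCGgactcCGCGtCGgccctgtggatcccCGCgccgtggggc
Ap4b1, chr3:103809286-103809347, plus strand: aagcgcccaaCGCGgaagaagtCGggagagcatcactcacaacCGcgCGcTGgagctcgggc

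The second set holds pair-only positions at reference TG or CA, each 1 letter away from CG. It was chosen after the values were seen: 7 promoters were tied at 2 such sites, the most found on both strands, and the first of them by name are shown, apart from Pakap, where 4 of 6 pair-only positions lie before the start. The 7 windows had means from 0 to 4.55%.
Bcar1, chr8:111743870-111743939, minus strand: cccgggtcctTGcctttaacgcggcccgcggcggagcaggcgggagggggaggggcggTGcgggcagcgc
Fkbp3, chr12:65074026-65074105, minus strand: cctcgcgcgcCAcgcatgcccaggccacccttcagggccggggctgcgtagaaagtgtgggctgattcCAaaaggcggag
Mthfsd, chr8:121108474-121108587, minus strand: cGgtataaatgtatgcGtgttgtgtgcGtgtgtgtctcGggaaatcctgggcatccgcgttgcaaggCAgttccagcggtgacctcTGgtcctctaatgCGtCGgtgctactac

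In these windows the positions were almost unmethylated, apart from Gm5294. Birc5 encodes survivin, an inhibitor of apoptosis with a role in mitosis. Its window held 18 pair-only positions, 13 of them at a reference CpG, with a mean of 0.275% ± 0.238 in CAST/EiJ and 0.671% ± 0.371 in PWK/PhJ (SD, n = 3 each). The window of Mast4, a microtubule-associated kinase, held 16, of which 14 were at a reference CpG, with means of 0.292% ± 0.253 and 2.06% ± 1.91. Ap4b1, a subunit of an adaptor complex in vesicle traffic, had 12 at 0.397% ± 0.687 in CAST/EiJ and at 0 in all 3 PWK/PhJ samples.

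Positions without a reference CpG in the second set were also near 0, in promoters picked after the values were seen. All 4 positions at Bcar1, a signalling scaffold, were at 0 in all 6 samples. The 4 at Fkbp3, an immunophilin, were at 0 in 5 samples and at 4.20% in PWK/PhJ replicate 1. Of the 12 positions in the Mthfsd window 4 were at no reference CpG, and the window's mean was 0 in every sample except PWK/PhJ replicate 3, at 0.521%. At Pakap none of the 6 positions was at a reference CpG, and their means were 0.278% ± 0.481 in CAST/EiJ and 2.25% ± 1.66 in PWK/PhJ (SD, n = 3 each), with PWK/PhJ replicate 1 at 4.17%.

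Among all 36 strain pairs, CAST/EiJ with PWK/PhJ had the highest number of positions listed in both strains' files and nowhere else. The other 35 pairs had between 469 and 5537, with a median of 807, and the next highest was CAST/EiJ with WSB/EiJ. WSB/EiJ is also a strain whose single files list many positions otherwise found in CAST/EiJ alone: of 21196 positions in all 3 CAST/EiJ files and 1 other file, 13422 were in WSB/EiJ, and of 19699 in all 3 PWK/PhJ files and 1 other, 11423 were in DBA/2J. The part of this listing in the counts by strain pair was not tested. Each strain of the pair had more positions of its own than it had in common with the other: 100927 were listed in the 3 CAST/EiJ files only and 87018 in the 3 PWK/PhJ files only. The other strains had between 2998 (A/J) and 16718 (WSB/EiJ) of their own. The opposite set, listed in all 21 files outside the pair and in neither strain of it, numbered 45945.

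The files of DBA/2J and WSB/EiJ stood apart in the listing, and this bears on which positions the rule kept. Of 9983 positions listed in all 6 files of the pair and in exactly 1 other file, 4086 (40.9%) were in a DBA/2J file and 4537 (45.4%) in a WSB/EiJ file. The other 5 strains had between 243 and 299 each. All 3 samples of both strains contributed, with 1122 to 1569 positions for each DBA/2J sample and 1393 to 1701 for each WSB/EiJ sample. In those files the positions had levels close to the pair's: the DBA/2J sample with the most averaged 62.9% where the 6 samples averaged 63.2%, and the WSB/EiJ sample with the most averaged 69.2% against 68.7%. When the 6 files of DBA/2J and WSB/EiJ were left out of the rule, 77692 positions qualified, 30722 more. This form of the rule is called the wider rule below. Each added position was listed in at least 1 DBA/2J or WSB/EiJ file, so it is not pair-only. Of the added positions, 2299 were in all 3 DBA/2J files and no WSB/EiJ file. Another 6219 were in all 3 WSB/EiJ files and no DBA/2J file. Values under the wider rule therefore mix pair-only positions with these. The cause of the listing was not tested. The level, the shares by gene end, neighbours and strand, the reference letters and the counts of calls were recomputed with these 2 strains left out of the rule. Levels by chain and strand class, differences from neighbouring positions, chromosomes, dense tiles, named genes, gene families and gene lists were not recomputed.

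**Figure D1:**
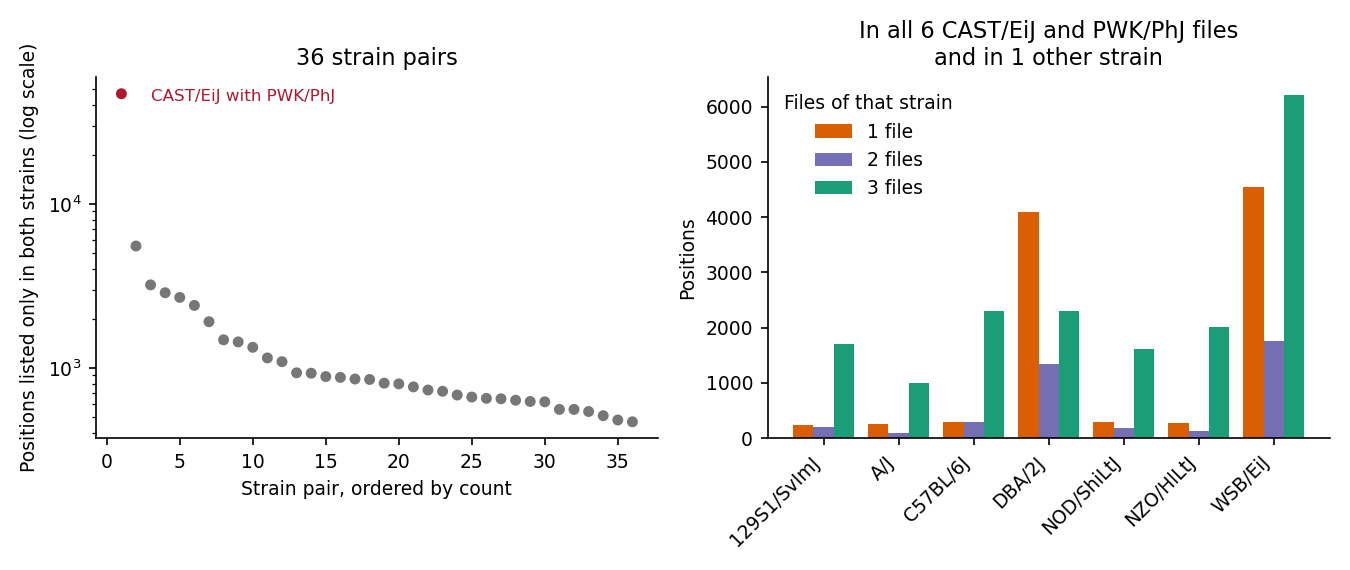
Left, the number of autosomal positions listed only in both strains of a pair (log scale) for all 36 pairs in order of count; right, positions in all 6 CAST/EiJ and PWK/PhJ files and in 1 other strain, by how many of that strain's 3 files list them. The pair stands at 46970 against at most 5537 for any other, and DBA/2J and WSB/EiJ have 4086 and 4537 positions in a single file where each other strain has at most 299.

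Just outside the rule the 9634 positions in 5 of the 6 files and no other had sample means between 75.8 and 77.0%, and the 9983 in all 6 files and 1 other had means between 67.3 and 67.7%. Pair-only positions lay between these ranges, at 70.0 to 70.4%.

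The pair-only positions were mostly methylated, and the shared positions mostly not. In CAST/EiJ the 3 samples averaged 70.1, 70.2 and 70.0% over the 46970 positions, and in PWK/PhJ 70.4, 70.3 and 70.0%, so the samples of both strains overlapped. The mean over the 6 samples was 70.2% ± 0.153 (SD, n = 6), against 28% ± 0.148 at shared positions. The difference of 42.2 points had the same sign in 6 of 6 samples (exact sign-flip permutation test over samples, two-sided, p = 0.03125, the smallest it can give). With DBA/2J and WSB/EiJ left out of the rule the level was 68.1% ± 0.127 and the difference 40.1 points.

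In an average sample 60.7% ± 0.499 of pair-only positions lay above 80%, 19% ± 0.726 between 20 and 80%, and 20.3% ± 0.404 below 20% (SD, n = 6). For shared positions the shares were 22.9, 9.60 and 67.5%. By the mean of the 6 samples, 7071 pair-only positions (15.1%) lay under 5% and 13225 (28.2%) over 95%. The bin from 80 to 95% held the most, 16664 (35.5%), and the 3 bins from 5 to 60% held between 2.83 and 4.22% each.

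High levels were also found in the other sets defined by which strains list them. Positions listed only in CAST/EiJ averaged 74.1% ± 0.0775 (SD, n = 3), and those only in PWK/PhJ 73.1% ± 0.251. The 45945 positions listed only outside the pair averaged 72.1% ± 0.459 over their 21 samples. These values were not tested against the pair-only level.

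**Figure D2:**
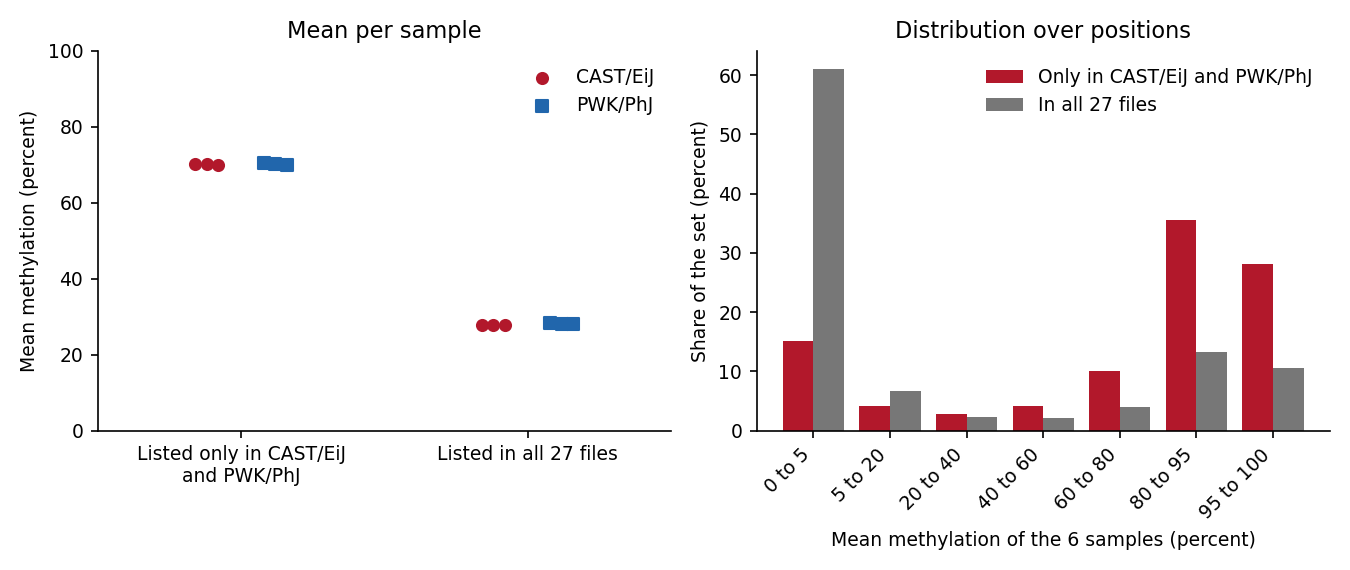
Left, mean methylation (percent) of pair-only and shared positions in each of the 6 samples; right, the share of each set by the mean of the 6 samples. Every sample lies near 70% for pair-only positions and near 28% for shared ones, and the 2 highest bins hold 35.5 and 28.2% of pair-only positions.

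Where the positions lay relative to genes went with their level. Only 14.1% lay within 1000 bp of either end of a protein-coding gene, against 50.2% of shared positions and 11.8% of those listed only outside the pair. The median distance to such an end was 16441.5 bp for pair-only and 988 bp for shared positions. Inside protein-coding genes lay 54.8% (shared 75.6%, only outside the pair 48.6%). In no gene of the RefSeq table lay 36.7% (shared 19.2%, only outside the pair 42.1%). The table gives no strand, so starts and ends of genes are not separated. Under the wider rule 15.9% lay within 1000 bp of an end.

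Within 250 bp of a gene end, 2634 pair-only positions averaged 12.0% ± 0.151 (SD, n = 6), and shared positions there 3.33% ± 0.0992. From 250 to 1000 bp the levels were 27.5% ± 0.210 and 7.26% ± 0.158. From 1000 to 5000 bp they were 66.1% ± 0.202 and 32.6% ± 0.301. Low methylation at gene ends was therefore seen in both sets, at a higher level in the pair-only one. The level within 250 bp was 10.6% ± 0.122 under the wider rule.
Farther out, pair-only positions averaged 79.5% ± 0.218 at 5000 to 50000 bp and 82.8% ± 0.120 beyond, against 58.8 and 67.4% for shared positions. In each of the 5 distance classes the pair-only level was higher in 6 of 6 samples (exact sign-flip permutation test, two-sided, p = 0.03125 in each, the smallest it can give). Benjamini-Hochberg adjustment over the 10 classes of distance and neighbours cannot change equal p-values. The test measures spread between samples over fixed sets of positions, not spread between positions or regions.

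The surroundings differed as well. A pair-only position had a median of 5 other listed positions within 100 bp, a position listed only outside the pair 6, and a shared position 24. No shared position lay within 100 bp of 29854 pair-only positions (63.6%), of 67.8% of those listed only outside the pair, and of 5.70% of shared positions. The wider rule gave 64.6% in place of 63.6%. Among positions in the same class of shared neighbours, the levels came close. These classes count the opposite strand where it is shared, and they leave out pair-only neighbours. Another pair-only position, opposite strand included, lay within 100 bp of 70.0% of pair-only positions, so the total numbers of neighbours are not matched. Without any shared neighbour, pair-only positions averaged 79.8% ± 0.150 and shared ones 78.3% ± 0.165 (SD, n = 6). With 3 to 5 neighbours the levels were 69.4% ± 0.229 and 65.4% ± 0.141. With over 10 neighbours they were 8.51% ± 0.185 and 5.94% ± 0.168.
In all 5 neighbour classes the pair-only level remained the higher one in 6 of 6 samples, by 1.51 to 5.64 points (exact sign-flip permutation test, two-sided, p = 0.03125 in each). Restricted to positions with 1 to 4 other listed positions within 100 bp, the difference was 5.43 points, against 42.2 points over all.

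**Figure D3:**
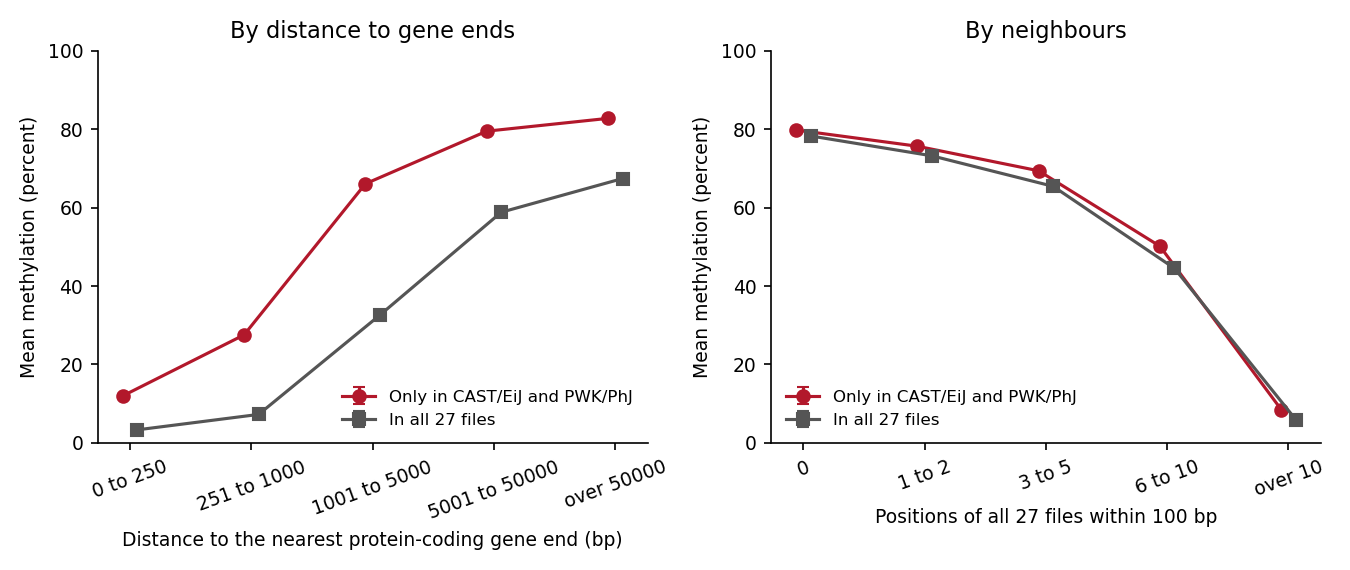
Mean methylation (percent; points are means of 6 samples, bars 1 SD, mostly smaller than the points) of pair-only and shared positions by distance to the nearest end of a protein-coding gene (left) and by the number of shared positions within 100 bp (right). The curves are 8.66 to 33.5 points apart by distance but at most 5.64 points apart within a class of shared neighbours. Pair-only neighbours are not counted in these classes.

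Pair-only positions had levels like those of the shared positions around them. For the 17116 with at least 1 shared position within 100 bp, the mean was 53.4% and that of their neighbours 54.0%. The difference of -0.604 points ± 0.149 (SD, n = 6) was negative in 6 of 6 samples (exact sign-flip permutation test, two-sided, p = 0.03125). Of these positions 81.2% lay within 10 points of their neighbours' mean, while 70 lay over 50 points above it and 67 over 50 points below. Across positions, which are not independent and share libraries and regions, Pearson's r between a position and its neighbours was 0.964.

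Whether most positions stood alone depended on the rule. With the opposite strand of the same CpG not counted, 25981 (55.3%) had no other pair-only position within 100 bp, and under the wider rule 38.8% had none. The same measure gave 6.30% for shared positions, a far larger set. A further 10832 (23.1%) lay in chains of 2 sites and 10157 (21.6%) in chains of 3 or more, where sites within 100 bp of each other were joined. The 2093 chains of 3 or more had a median span of 38 bp, and the longest chain spanned 234 bp. The longest by count held 20 positions, and the most sites in a chain was 14.

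Level differed by class. Positions standing alone averaged 70.1% ± 0.149, those in chains of 2 sites 75.8% ± 0.153, and those in chains of 3 or more 64.4% ± 0.226 (SD, n = 6), with no overlap between the classes' samples. Chains of 3 or more also lay within 1000 bp of a gene end more often, at 19.7%, than positions alone (13.8%) or in chains of 2 (9.61%).

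Both strands of a CpG are listed as separate positions 1 bp apart. For 45.9% of pair-only positions the one 1 bp away was pair-only too, against 75.7% for shared positions. The wider rule gave 55.4% in place of 45.9%. For 16.8% it was listed in another strain as well, for 15.7% in part of the 6 files only, and for 21.6% it was not listed. The levels in these 4 classes were 65.2, 65.0, 76.0 and 80.4%. On the 10763 CpGs with both strands pair-only, the strands differed by a median of 2.86 points, and 87.5% agreed within 10 points.

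The reference letters could be read for the 1712 pair-only positions (3.64%) that fall in RefSeq promoter windows, of which 31396 lie on autosomes. Of these positions 609 (35.6%) were at a CpG of the reference and 1103 (64.4%) were not. By contrast, 234869 of 234874 shared positions in the windows were at a reference CpG. So were all 1483 listed only outside the pair. The pair-only share depended on the rule: under the wider rule, 1942 of 3295 positions in the windows (58.9%) were at a reference CpG, and of the 1583 added ones 1333 (84.2%) were. Which genome sequence the reads of each strain were set against is not given in the sources used here. These shares describe promoters, where pair-only positions are less methylated than elsewhere.

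Where both strands were pair-only, the reference dinucleotide can be read whole. Of 527 such CpGs in the windows, 255 (48.4%) had TG or CA in the reference, as in the Bcar1 and Fkbp3 sequences above, 139 being CA and 116 TG. CG stood at 116 (22.0%), and 156 (29.6%) had another dinucleotide, of which 153 were 1 letter away from CG. The mean level was 10.9% ± 0.199 at TG or CA, 11.6% ± 0.544 at CG and 3.59% ± 0.285 at the other dinucleotides (SD, n = 6). By the wider rule, 25.2% of 1236 such CpGs had TG or CA and 58.9% had CG, so the order of these groups turned.
The MspI site CCGG surrounded 1 of the 527 in the reference, against 9615 of 99702 (9.64%) shared CpGs. These shares have unlike bases, since a site without CG in the reference cannot lie within CCGG. CG stood at 116 of the 527, against 99560 of the 99702 shared CpGs (99.9%). The contrast is therefore partly fixed by the missing CG. Among the 116 at CG, CCGG surrounded 1. The 1-letter variants of CCGG, CTGG or CCAG, searched on both strands, surrounded 38 of the 255 at TG or CA. Among all promoter windows, CCGG occurs in 53.5%, CG in 94.8% and CTGG or CCAG in 97.1%. A match is a description of the reference letters only.

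Standing alone and lacking a reference CpG went together. In the windows, 75 of 859 positions standing alone (8.73%) were at a reference CpG, 33.3% of the 258 in chains of 2 sites, and 448 of 595 (75.3%) in chains of 3 or more sites. The wider rule gave shares of 9.83, 42.5 and 86.3%, in the same order. Where the position 1 bp away was listed in another strain, 70.1% were. Levels at positions without a reference CpG were not higher or lower throughout: they averaged 10.4% against 11.3% at reference CpGs in all windows, 0.975% against 4.01% with over 10 shared neighbours, and 43.0% against 16.1% with none. Each of these differences had 1 sign in 6 of 6 samples (exact sign-flip permutation test, two-sided, p = 0.03125, the smallest it can give). Benjamini-Hochberg adjustment over 9 classes with equal p-values cannot change them. The sign of the difference reversed between the classes. When the wider rule was used, the difference over all windows turned from -0.878 to 1.63 points, while that with over 10 shared neighbours was -0.618 points and that with none 28 points.

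**Figure D4:**
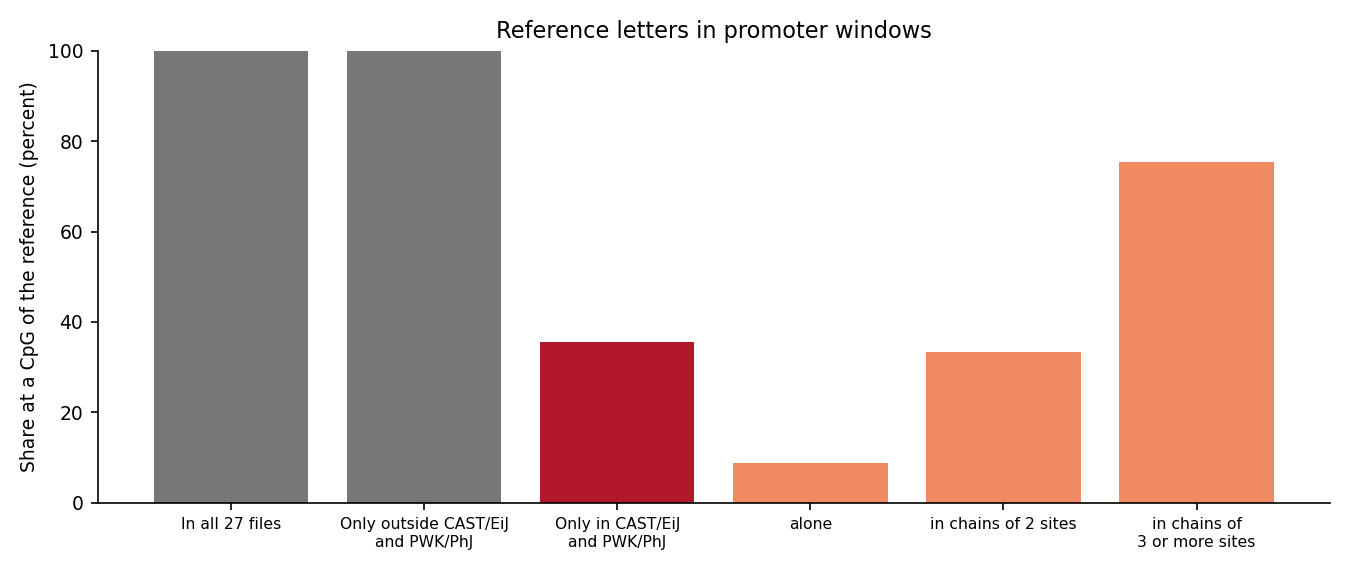
Share (percent) of positions in RefSeq promoter windows that lie at a CpG of the GRCm38.p6 reference, for shared positions, positions listed only outside CAST/EiJ and PWK/PhJ, pair-only positions, and pair-only positions by class, with all 21 other files in the rule. Pair-only positions stand at 35.6% (58.9% with DBA/2J and WSB/EiJ left out of the rule), from 8.73% alone to 75.3% in chains of 3 or more sites.

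Pair-only positions were spread over all 19 autosomes. Chromosome 5 held the most, 4593, and their share of listed positions ran from 0.550% on chromosome 14 to 1.39% on chromosome 10. The chromosome means lay between 65.7% (chromosome 13) and 76.2% (chromosome 14). In 2272 windows of 1 Mb with at least 500 listed positions, the median share was 0.858%, and 269 windows had none. The highest was chr4:87000001-88000000 with 48 of 992 (4.84%), a window that holds Slc24a2, a sodium, calcium and potassium exchanger, and Mllt3, a chromatin reader. At the other end, chr11:69000001-70000000 had none among 9958 listed.

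Of the 10 densest 1 kb tiles, 5 were near 0 or low, 4 were methylated, and the tile at Gm5294 lay between. At Gm5294, a predicted protein-coding gene, 20 pair-only positions lay between 138820015 and 138820143 on chromosome 5. CAST/EiJ samples were at 54.3, 49.2 and 50.5% and PWK/PhJ samples at 35.2, 33.0 and 29.5%, so the strains did not overlap. The difference is under the 25 points that the test below requires for a call.
The other dense tiles at gene ends were near 0 or low, with 18 to 20 positions each. At Birc5 (chr11:117849037-117849374) the 6 samples lay between 0 and 0.945%. At D10Wsu102e (chr10:83360380-83360733) they lay between 0 and 0.927%. At Snrnp70, the 70 kDa protein of the U1 splicing particle, they lay between 0 and 2.78%. At P3h2, a collagen prolyl hydroxylase, they lay between 0.310 and 1.59% in a tile 11 bp beyond the gene's end. The Mthfsd tile (chr8:121108089-121108966) was slightly higher, at 2.70 to 5.00%.

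The methylated dense tiles lay in a pseudogene, inside Tspan9 or far from protein-coding genes. In Cyp2b27-ps, a pseudogene of the cytochrome P450 Cyp2b cluster (chr7:26006090-26006931), 18 positions had no shared position in the tile. The samples were at 94.9, 97.3 and 95.3% in CAST/EiJ and 91.8, 94.2 and 92.1% in PWK/PhJ. The tile at chr1:64440644-64440816, whose nearest protein-coding gene is Creb1 at 91978 bp, held 18 of 26 listed positions and lay between 89.5 and 93.7%. In Tspan9, a tetraspanin, 18 positions were at 93.6, 91.0 and 90.0% in CAST/EiJ and at 84.5, 80.3 and 76.8% in PWK/PhJ, without overlap. The tile 67448 bp from Nkx2-1, a lung and thyroid transcription factor, lay between 85.3 and 94.6%.

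Of 20665 protein-coding genes, 2724 (13.2%) had a pair-only position within 1000 bp of an end, and 373 had 5 or more. The most were at Mthfsd (24), Gm5294 (22), D10Wsu102e (21), Birc5 (20), P3h2 (19), Ogfod2 and Snrnp70 (18 each), Mast4 (17), and Cux2 and Mdn1 (16 each). Of these genes, 3 had a mean above 15% in either strain. At Mdn1, an ATPase of ribosome assembly, 16 positions (chr4:32656650-32656974) lay before the span's lower end. They were at 43.8, 41.7 and 40.4% in CAST/EiJ and at 28.3, 29.7 and 29.7% in PWK/PhJ. The 67 shared positions within 1000 bp of the gene's ends, not only those near this run, averaged 0.492%. At Cux2, a homeobox factor with female-biased expression in liver, 5 positions lay at the span's lower end and 11 at its higher end. Pooled over both ends of Cux2, CAST/EiJ samples were at 12.4, 23.0 and 17.0% and PWK/PhJ samples at 34.0, 23.2 and 35.8%. The strains did not overlap at Mdn1 or Cux2, though the nearest Cux2 samples, at 23.0 and 23.2%, were close. The third of these genes was Gm5294.

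Gene families were covered unevenly, beside a share of 0.925% over all listed positions. UDP glucuronosyltransferases, which conjugate drugs and bilirubin, had 8 pair-only positions, 1.79% of those listed in them, at 95.8% ± 1.55 (SD, n = 6). Of these, 7 lay in the overlapping spans of the Ugt1a cluster. Cytochromes P450 had 52 (0.992%) at 61.7% ± 2.95, with Cyp20a1 holding 12. Solute carriers had 558 (0.917%) at 68.7%, zinc finger genes 355 (0.674%) at 57.7% with 35 in Zfp469, and protocadherins 43 (0.664%) at 39.3%. Homeobox clusters had 28 (0.376%) at 4.38% ± 1.33, near the 5.67% of shared positions there. Shared positions were lower than pair-only ones in UDP glucuronosyltransferases (18.1%), cytochromes P450 (32.4%), solute carriers (26.1%), zinc finger genes (25.6%) and protocadherins (24.3%). So they were in major histocompatibility genes and the receptor families below. In serpins the shared positions were higher, at 35.8% against 22.9%. Serpins had 6 (0.459%), major histocompatibility genes 4 (0.173%), olfactory receptors 7 (0.466%) and vomeronasal receptors 14 (0.712%).

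Liver and imprinted genes held few, beside 0.925% of all listed positions and 0.436 to 0.847% of those in the distance classes within 5000 bp of a protein-coding gene end. With 5000 bp around each gene, 6 of 30 liver genes held 16 pair-only positions, 0.272% of the positions listed there. Among them were Foxa1 (3), Alb and Ttr (2 each) and Ass1 (1). At Alb, which encodes serum albumin, the 2 averaged 50% ± 0 in CAST/EiJ and 44.4% ± 9.62 in PWK/PhJ (SD, n = 3 each), and at Ttr, the thyroxine carrier transthyretin, 77.8% ± 25.5 and 71.7% ± 20.2. At Foxa1, a pioneer factor, they were at 5.00% ± 2.30 and 2.14% ± 2.03.
Of 19 imprinted genes found in the table, 5 held 13 (0.275%). Igf2r, the receptor that clears IGF2, had 6, at 89.8% ± 3.81 in CAST/EiJ and 88.9% ± 1.90 in PWK/PhJ. Grb10, a growth-restraining adaptor, had 2, at 34.9% ± 9.51 and 63.5% ± 21. Kcnq1ot1 and Nap1l5 had 2 each and Igf2 1, all with means above 89% in both strains. The strain differences at these genes were not tested on their own.

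The 2 strains had nearly the same mean at pair-only positions. CAST/EiJ averaged 70.1% ± 0.0887 and PWK/PhJ 70.2% ± 0.195, a difference of -0.129 points (exact permutation test, two-sided, p = 0.4, where 3 against 3 cannot go below 0.1). At shared positions the difference was -0.244 points (p = 0.1 in the exact permutation test). Across positions, which are not independent, Pearson's r between strain means was 0.928 for pair-only and 0.980 for shared positions. Strain means lay at least 25 points apart at 7.28% of pair-only and 2.22% of shared positions. These shares are not matched for level, and 61.1% of shared but 15.1% of pair-only positions had a mean under 5%, where such a difference cannot occur. Among positions with a mean of 40 to 60% the shares were 41.6% and 30.6%, at 60 to 80% they were 26.4% and 17.1%, and at 80 to 95% they were 4.94% and 1.68%. An unadjusted p under 0.05 in the limma fit described next was found at 10% of tested pair-only positions and at 9.27% of all tested. Depth is unknown for both sets, and its part in these shares was not tested.

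In the limma fit over all 960908 autosomal positions in all 6 files whose mean was not close to 0 or 100%, 6401 (0.666%) were called different, with adjusted p under 0.05 and strain means at least 25 points apart. Of 46970 pair-only positions 33779 were tested, and the rest were left out mainly for a mean near 0 (5970) or near 100% (7214). Called were 299 (0.885%), with 134 higher in CAST/EiJ (0.397%, against a background of 0.297%) and 165 higher in PWK/PhJ (0.488%, against 0.370%). Of 55141 tested under the wider rule, 465 were called (0.843%). The called differences had a median of 77.0 points, and the smallest was 31.9. Called positions made up 0.467% of the 2356 tested within 1000 bp of a gene end and 0.917% of the 31423 beyond. The same shares over all tested positions were not computed. This contrast is therefore not shown to be particular to pair-only positions. Of 84 called positions whose opposite strand was tested, 38 had that strand called as well.
The count was 108 with an offset of 1 point and 463 without the log transformation. Leaving out any 1 of the 6 samples lowered it to between 58 and 75, with an arm of 2 samples left.

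Over 1 kb tiles with at least 5 positions, 1301 of 66467 tiles were called (1.96%), and so were 21 of 1094 tiles of pair-only positions (1.92%), 12 higher in CAST/EiJ (1.10%, against a background of 0.827%) and 9 higher in PWK/PhJ (0.823%, against 1.13%). Without CAST/EiJ replicate 4 the number was 12, and without PWK/PhJ replicate 1 or 3 it was 13. With DBA/2J and WSB/EiJ left out of the rule, 69 of 2965 tiles were called (2.33%).

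The 6 largest differences with CAST/EiJ higher lay in or near genes of varied function. The largest was 3342 bp from Mipol1 (chr12:57460583-57460620, 5 positions), at 96.7, 86.7 and 94.0% in CAST/EiJ and 30, 19.6 and 30.9% in PWK/PhJ (limma, adjusted p = 0.00215). In Cln8, an endoplasmic reticulum protein mutated in a neuronal storage disease, 5 positions were at 78.7, 56.9 and 77.5% against 0, 10 and 8.29% (adjusted p = 0.00675). In Rgl1, an exchange factor for Ral GTPases, 5 positions were at 86.0, 83.0 and 90.2% against 48.6, 45 and 40% (adjusted p = 0.00314). In each of these tiles the lower strain's highest sample stayed under the higher strain's lowest. The rule for naming tiles required this and took the largest differences, so the gaps restate that choice.
In Chst15, a sulfotransferase of chondroitin sulfate, the means were 54.4% ± 4.19 and 16.1% ± 5.09 (SD, n = 3 each; limma, adjusted p = 0.00626). In Ksr1, a scaffold of the Ras pathway, they were 95.6% ± 7.70 and 59.7% ± 1.62 (limma, adjusted p = 0.0233), and this call was lost with an offset of 1 point or when any sample but CAST/EiJ replicate 5 was left out, with adjusted p between 0.0750 and 0.0816. The tile 16152 bp from C2cd4b had 7 positions at 88.6, 69.5 and 81.0% in CAST/EiJ and 32.7, 32.4 and 26.2% in PWK/PhJ (limma, adjusted p = 0.00848). Its 13 shared positions averaged 59.8 and 28.4%, while the other 7 strains ran from 12.5 to 33.5%.

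Among tiles with PWK/PhJ higher, the one in Ccdc68 had CAST/EiJ at 20, 13.3 and 26.7% and PWK/PhJ at 70.0, 100 and 80% (limma, adjusted p = 0.0330). This call was lost with an offset of 1 point (adjusted p = 0.118) and when CAST/EiJ replicate 1, 4 or 5 or PWK/PhJ replicate 1 was left out (adjusted p from 0.0745 to 0.110).
The tile 19657 bp from Cplx2, a regulator of vesicle release, was at 17.0, 30 and 15.8% in CAST/EiJ and 72.3, 71.4 and 75.8% in PWK/PhJ (limma, adjusted p = 0.00355). Its 4 shared positions were at 9.59 and 49.9%, with the other strains between 6.15 and 16.9%. Of the 12 tiles the rule named, 5 held shared positions, and in 4 of these 5 their difference had the sign of the pair-only one. In Plpp3, a lipid phosphatase of the cell surface, the means were 22.1% ± 5.32 and 66.9% ± 5.27 (SD, n = 3 each; limma, adjusted p = 0.00452). Near Luc7l, a splicing factor gene, they were 41.1% ± 9.60 and 85.4% ± 3.24 (limma, adjusted p = 0.00571). In Rhobtb1 they were 22.3% ± 3.23 and 65.3% ± 7.35 (limma, adjusted p = 0.00524). Its 15 shared positions were at 17.7 and 81.7%, while the other strains ran widely, from 32.3 to 68.9%.

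**Figure D5:**
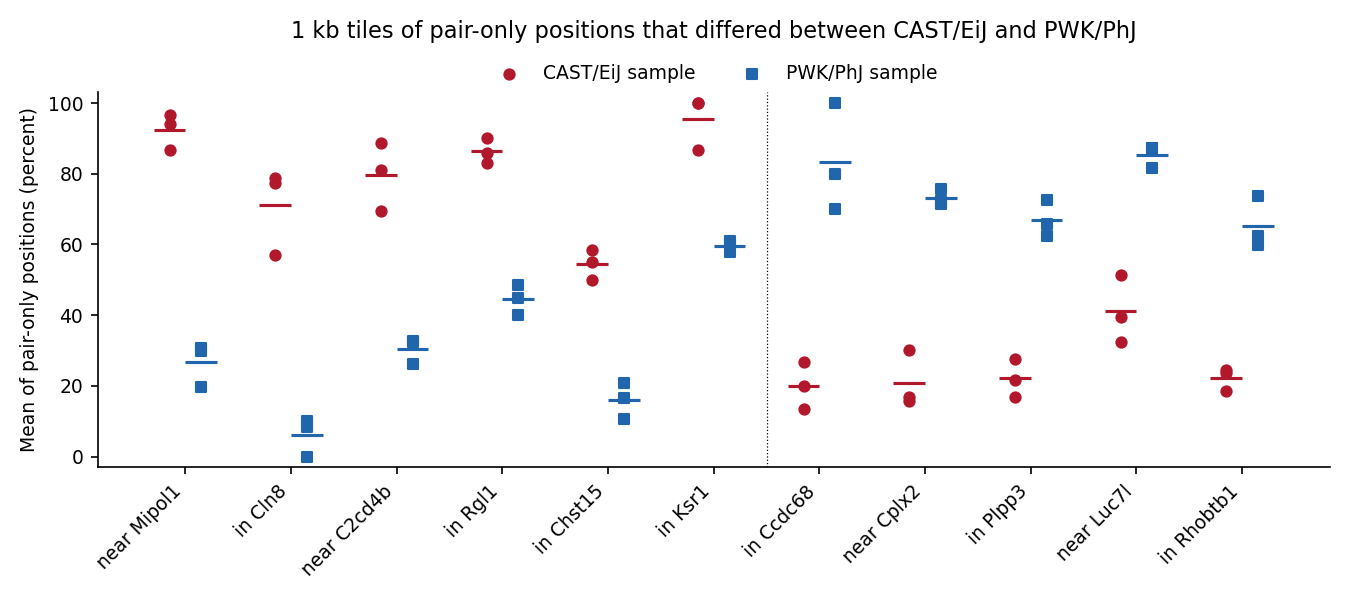
Mean methylation (percent) of pair-only positions in 11 named 1 kb tiles, for each of the 3 CAST/EiJ and 3 PWK/PhJ samples, with a line at each strain mean; genes are those the tile lies in or the nearest protein-coding ones. The dotted line parts the 6 tiles higher in CAST/EiJ from the 5 higher in PWK/PhJ, and in no tile do the strains overlap, which the rule for naming tiles required.

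Shared positions near pair-only ones allow a comparison with the other strains. Over all 74787 shared positions within 100 bp of a pair-only one, the strain means lay between 21.3 and 22.3%, with CAST/EiJ at 22.1% ± 0.0693 and PWK/PhJ at 22.3% ± 0.0652 (SD, n = 3 each). A/J, at 22.2% ± 0.0335, lay between them. In the limma contrast of the pair against the 7 other strains, 13333 of 666641 shared positions were called (2.00%), 1.33% higher and 0.667% lower in the pair. Its p-values measure the spread of samples within strains, not the spread between strains. A call therefore does not show that the strains on either side were alike. Among the 24629 tested within 100 bp of a pair-only position, 886 were called (3.60%), 607 higher (2.46%) and 279 lower (1.13%) in the pair.
The called share was 4.22% at 1 to 20 bp from a pair-only position, 3.28% at 21 to 100 bp, 2.59% at 100 to 500 bp, 2.42% at 500 to 5000 bp and 1.80% beyond. It was likewise 3.47% (700 of 20197) within 100 bp of positions listed only outside the pair. So it was not shown to be particular to pair-only positions.

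The 1 kb tiles with the most called shared positions near pair-only ones differed in how the other strains behaved. Here and in the tiles lower in the pair, values are means over these called positions only. Other shared positions of a tile are left out. The positions were chosen for this difference, so the gaps between samples and the adjusted p restate that choice. In Baiap2l2, 16 called shared positions (chr15:79261895-79261996) averaged 49.8% ± 1.64 in CAST/EiJ and 52.0% ± 2.42 in PWK/PhJ, against 6.45 to 13.2% elsewhere. The 6 samples lay between 48.3 and 54.5% and the 21 others between 4.35 and 16.0%, without overlap (limma, largest adjusted p = 0.000349). The 2 pair-only positions there were at 45.6% ± 3.99 and 46.5% ± 19.3.
In Rgs3, a regulator of G protein signalling, 11 positions were at 82.6% ± 2.33 and 66.1% ± 1.27 against 22.6 to 46.7%, and in Arhgap27 11 were at 67.4% ± 2.63 and 72.8% ± 11.6 against 22.9 to 43.7%. In both, the pair's samples lay above all 21 others. In Zc3h12d, an RNase of immune cells, 22 positions were at 54.2 and 74.2% but the other strains ran from 4.92 to 71.9%, and in the pseudogene Gm7318 15 were at 83.3 and 94.8% against 38.1 to 89.5%, so the pair overlapped with other strains.

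Among tiles lower in the pair, the one 4475 bp from Pdlim1 (chr19:40276091-40276292) stood out in size. Its 12 called shared positions averaged 23.4% ± 5.94 in CAST/EiJ and 21.6% ± 6.32 in PWK/PhJ, against 92.8 to 98.4% in the other strains (limma, largest adjusted p = 5.45e-07). No sample of the pair was above 28.3% and no other below 89.5%, and its 2 pair-only positions were low too, at 15.1% ± 1.93 and 19.4% ± 11.2.
In Eogt, an enzyme that glycosylates EGF domains, 6 positions were at 14.7% ± 5.90 and 5.97% ± 3.78 against 47.7 to 67.1% (limma, largest adjusted p = 5.38e-06). In Tmem132e, 8 were at 46.9 and 43.7% against 76.1 to 90.0%, with the pair's highest sample at 57% and the others' lowest at 59.0%. In Slc13a2, a dicarboxylate transporter, 9 were at 7.29 and 18.4% against 32.6 to 57.5%, and the samples overlapped, at up to 23.7% in the pair and down to 23.0% outside. In Gm34653, 7 were at 38.7% ± 6.68 in PWK/PhJ alone, while CAST/EiJ at 87.6% ± 2.89 was close to the other strains (89.1 to 95.7%), and its 2 pair-only positions followed at 39.0% ± 13.2 and 92.8% ± 2.91.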

How the data were processed

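Per the labels' protocols, hepatocyte DNA was cut with MspI and made into RRBS libraries with a commercial kit. The submitters' processing notes name Trim Galore 0.6.3, Bowtie2, Bismark 0.22 and the build GRCm38 (mm10), without roles. Any coverage filter is not given in the sources used here. The authors deposited, per the file headers, a percent methylation for each position and sample.

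Samples were grouped by the strain label. The members, gene lists and rules for naming were chosen with earlier results of these data known. Named were the 10 tiles of 1 kb and the 10 protein-coding genes with the most pair-only positions, the 6 called tiles with the largest difference in each direction, the 5 tiles with the most called shared positions in each direction, the genes of 2 lists that hold pair-only positions, and the 6 promoters with the most. Of those 6 promoters, Snrnp70 and Hdac4 are not printed, since most of their positions lie after the start. Of the named items, 1 tile and 2 genes are not reported here. The called tiles named also had to show no overlap of samples between the strains. Chains join sites at most 100 bp apart.

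Sample means were compared by exact permutation tests. Tests across positions used limma 3.58.1 (R 4.3.3) on log2((percent + 5)/(100 - percent + 5)), where 5 is an offset in points, for means between 2.5 and 97.5%, with Benjamini-Hochberg adjustment over all positions tested. Called means an adjusted p under 0.05 and at least 25 points. Tested on simulated data for CAST/EiJ against PWK/PhJ over 184414 positions, the fit called 12.7% of shifts of 30 points, 41.3% of 50 points and 0.0935% of unshifted positions. The shifts were placed at more methylated positions only and always lowered PWK/PhJ. Each position's observed spread was taken as the true one. The rates for shifts therefore do not describe low levels or differences with PWK/PhJ higher. Gene spans, promoter windows and sequences are RefSeq's for GRCm38.p6. Counting and figures used Python 3.11.15, numpy 2.4.6, scipy 1.17.1, pandas 2.3.3 and matplotlib 3.10.9.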

Additional observations from a re-analysis of the deposited data

How the results depend on the processing

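Of 200 alternative values, 155 kept their direction and call or, for counts and shares, stayed within 1.5 times the reported value, 22 lost a call or a threshold, 22 moved and 1 reversed. The member minus shared difference lay between 42.15 and 42.23 points when 1 of the 6 samples was left out, where 5 samples cannot give a p under 0.0625. Without DBA/2J and WSB/EiJ, chosen after seeing the data, there were 77692 positions, 465 called positions and 69 called tiles, 38.8% of positions stood alone (55.3% reported), 58.9% of positions in promoter windows were at a reference CpG, 25.2% of both-strand CpGs were at TG or CA, and positions without a reference CpG were 1.63 points higher where the reported difference was -0.878 points. The share near gene ends was 5.61% within 250 bp and 29.2% within 5000 bp. Called positions numbered 108 with an offset of 1 point, 463 without transformation, 192 without a filter on the mean, and 58 to 75 with 1 sample left out. The pair-only share called stayed above that of all positions in these fits, by 1.18 to 2.16 times, while that of tiles was 0.685 to 1.18 times the share of all tiles. Called tiles numbered 12 with an offset of 1 point, 73 with 3 positions a tile, and 12 to 19 with 1 sample left out. Of the 12 named tiles, 9 kept their call under every alternative. The called share of shared positions near pair-only ones was 1.04% without a filter on the mean (0.665% over all), 3.28% with the replicate number as a block (1.74% over all), and 3.46 to 3.64% with 1 of 27 samples left out. Replicate numbers did not pair the samples: deviations of same-numbered samples correlated at -0.0111 to 0.00997, and 5 of 27 samples correlated best with their own number. No paired analysis was possible because CAST/EiJ and PWK/PhJ share 1 replicate number only. The cause of these changes was not tested. Depth is unknown, so positions with few reads cannot be told apart from well-covered ones.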

Other observations

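On the X chromosome, which the rule leaves out, 1560 positions (0.994% of those listed there) were listed in all 6 files of CAST/EiJ and PWK/PhJ and in no other. They averaged 78.0% ± 0.527 (SD, n = 6 samples), and 26.2% ± 0.818 of them lay between 20 and 80%. The 39017 X positions listed in all 27 files averaged 44.1% ± 1.46, and 37.6% ± 2.95 lay between 20 and 80%. Intermediate levels on X are known in females, where 1 copy is inactive. The share between 20 and 80% at X positions of the pair exceeded the 19% ± 0.726 of autosomal ones, and its samples (24.9 to 27%) lay above all 6 autosomal values (18.1 to 20.2%); this comparison was made after the values were seen.

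Pseudogenes held 1.73% of autosomal pair-only positions, 0.671% of shared ones and 2.49% of those listed only outside the pair. The 813 pair-only positions in pseudogenes averaged 81.5% ± 0.379 (SD, n = 6). Of 919 autosomal miRNA hairpins of RefSeq, 3 held pair-only positions: Mir3091 and Mir8102 with 2 each, all at 0 in the 6 samples, and Mir7648 with 3, at 1.02% ± 0.893 in CAST/EiJ and 0.585% ± 1.01 in PWK/PhJ (SD, n = 3 each).

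The single-file excess was seen for each strain of the pair on its own as well. Of 21196 positions listed in all 3 CAST/EiJ files and in exactly 1 file of another strain, 13422 (63.3%) were in a WSB/EiJ file, and of 19699 such positions for PWK/PhJ, 11423 (58.0%) were in a DBA/2J file. In the reverse direction, 2071 of 4270 for WSB/EiJ were in a CAST/EiJ file and 558 of 1800 for DBA/2J in a PWK/PhJ file. The cause was not tested.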
